A study of Mus musculus with 8 samples.

Results

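The replication-dependent histone genes encode the core histones H2A, H2B, H3 and H4 that package newly made DNA, and 24 of them were followed here in mouse lungs with and without expression of the NF-κB subunit p52 in the airway epithelium, each with and without LPS. Members were all rows of the deposited values that list exactly 1 gene symbol and whose symbol has the form of a clustered H2A, H2B, H3 or H4 gene, with the row of the highest mean over the 8 arrays kept for each gene. This gave 24 genes of 18820 measured, from 25 rows of 21218 rows with 1 symbol: 6 H2A genes, 9 H2B genes, 3 H3 genes and 6 H4 genes. Of these, 19 lie on chromosome 13 and 5 on chromosome 3, where the genome holds clusters of histone genes. A further 38 rows list several histone symbols at once and were not members. The linker histone H1 genes carry symbols of another form in the probe table and were read as a related list.

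Replication-dependent histone genes are switched on as cells enter S phase and are silenced when DNA synthesis ends. The level of their mRNA in a tissue therefore tends to follow the number of cells that copy their DNA. Such genes are typically short and without introns, and their mRNA typically ends in a stem-loop, bound by the stem-loop binding protein SLBP, in place of a poly(A) tail. The longest RefSeq gene models among the members are those of H2bc22 (14079 bases), H2bc4 (8282) and H2bc21 (2667). Members were taken by symbol, and whether each follows S phase was not tested. NPAT drives their transcription from histone locus bodies, and histone chaperones carry the new proteins to the replication fork. Copies of a class are nearly identical in sequence, so a probe set assigned to 1 gene may also read its copies. In adult lung few cells divide at rest, while epithelium and immune cells divide after injury.

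The mice were FVB, 8 to 12 weeks old, with sexes mixed evenly. In CCSP-p52 mice, doxycycline (dox) turns on FLAG-tagged p52 through the CCSP promoter, active in the secretory cells of the airway, with a tetracycline-controlled silencer also driven by the CCSP promoter. Wild type (WT) mice were littermates negative for the transgenes. All mice, controls included, drank 2 g/L dox with 2% sucrose for 1 week. The groups were WT dox, CCSP-p52 dox, WT LPS and CCSP-p52 LPS, the last pair having received intratracheal LPS 48 h before harvest. Each array carried whole-lung RNA pooled from 3 mice, and each group had 2 pools. In whole lung, more cells that express a gene and more RNA per cell cannot be told apart.

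Array medians ran from 7.48 to 7.54 on the log2 scale, and the pools of a group correlated at 0.994 in WT dox, 0.993 in CCSP-p52 dox, 0.987 in WT LPS and 0.981 in CCSP-p52 LPS over all rows. Lung markers were high on every array, with mean log2 values of the alveolar type II list from 12.37 to 13.01. Nfkb2, the gene that encodes p52, read 9.51 and 9.58 in WT dox, 10.2 and 10.3 in CCSP-p52 dox, 10.8 and 10.6 in WT LPS and 11.3 and 10.5 in CCSP-p52 LPS, so the genotypes did not overlap without LPS and did overlap with it. WT LPS pool 2 stood apart. Its mean log2 value was 12.0 for the 3 squamous epithelium markers, against 6.12 to 6.31 on the other arrays. For the 3 skeletal muscle markers it was 10.1, against 7.48 to 8.28. Of the muscle markers, Acta1 (11.97) and Ckm (11.95) were high in this pool, while Myh4 read 6.45. CCSP-p52 LPS pool 2 had the lowest mean for the S phase list of the 4 LPS pools, 8.31 against 8.44 to 8.72. Counts of histone genes called are therefore also given without both second LPS pools. For this and the other alternative fits, the share of all genes called was not counted, so those counts have no background. The related lists and the counts of groups that do not overlap are given with these pools only.

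The promoters of 5 genes are shown first, so that the sequence elements known from histone promoters can be seen in genes that rose and in one that was not called. They are the H2A and H2B genes with the greatest rise after LPS (H2ac4, H2ac15, H2bc3 and H2bc14), and H4c4, the row of the highest mean among the H4 genes, as a contrast from a class in which no gene was called. Each line gives the 150 bases before the gene's start in RefSeq, build GRCm38.p6, read 5′ to 3′ on the gene's strand, and capitals mark the TATA box (TATAAA), the CCAAT box (CCAAT) and the core of the octamer element (TTTGCAT), on either strand.
H2ac4, chr13:23750938-23751087, plus strand: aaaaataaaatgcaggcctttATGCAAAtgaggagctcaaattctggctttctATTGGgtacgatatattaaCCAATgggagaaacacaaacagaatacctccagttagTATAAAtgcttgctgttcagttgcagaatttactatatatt
H2ac15, chr13:21753913-21754062, minus strand: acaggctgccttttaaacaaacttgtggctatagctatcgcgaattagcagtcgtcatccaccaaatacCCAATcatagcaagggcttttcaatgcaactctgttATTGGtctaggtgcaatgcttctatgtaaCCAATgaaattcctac
H2bc3, chr13:23746584-23746733, plus strand: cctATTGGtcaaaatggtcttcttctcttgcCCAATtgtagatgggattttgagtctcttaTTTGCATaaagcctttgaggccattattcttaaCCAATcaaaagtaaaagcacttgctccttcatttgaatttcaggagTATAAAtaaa
H2bc14, chr13:21721894-21722043, plus strand: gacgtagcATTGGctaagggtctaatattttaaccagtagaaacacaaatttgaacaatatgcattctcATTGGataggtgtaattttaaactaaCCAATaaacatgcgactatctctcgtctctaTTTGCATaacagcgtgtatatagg
H4c4, chr13:23581418-23581567, plus strand: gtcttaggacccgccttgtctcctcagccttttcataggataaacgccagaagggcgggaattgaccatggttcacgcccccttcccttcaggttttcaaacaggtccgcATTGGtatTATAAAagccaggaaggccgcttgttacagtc

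Of the 24 genes, all had an entry among the RefSeq genes and 20 had a promoter window. No window was given for H2bc4, H2bc21, H3c7 and H4c14. The 250 bases before the start were searched on both strands, and the same search was run on all 32851 windows. CCAAT was found in 16 of 20 histone windows (80%) against 33.8% of all windows, in 6 of 6 H2A and 7 of 7 H2B genes but in 1 of 2 H3 and 2 of 5 H4 genes. The octamer core, the binding element of POU2F factors and known from H2B promoters, was found in 10 of 20 (50%) against 4.12%, in 4 of 6 H2A and 5 of 7 H2B genes, in 1 of 5 H4 genes and in 0 of 2 H3 genes. TATAAA was found in 13 of 20 (65%) against 12.4%. The GC box GGGCGG was found in 6 of 20 (30%) against 32.7%, with 4 of those 6 in H4 genes. An E2F site, searched as TTGGCGC or TTCGCGC, was present in 1 of 20 (5%) against 3.14%. The κB consensus was present in 0 of 20 against 7.25%, which says only that these letters are not in these windows.

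Some of these windows are the same DNA read in opposite directions. H2ac1 and H2bc1 lie 280 bases apart and point away from each other, as do H2ac8 and H2bc8 at 179 bases, so each pair shares its octamer match and its members are not independent.

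**Figure D1:**
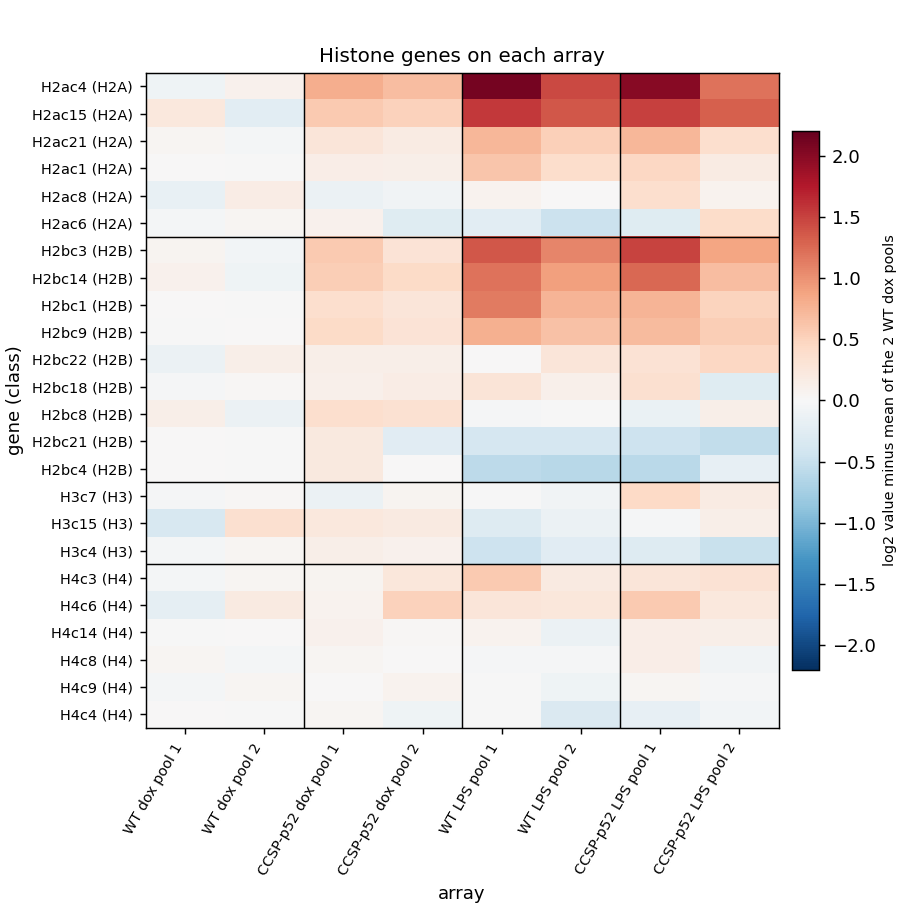
Heat map of the 24 histone genes (rows, ordered by class and then by their difference after LPS) on the 8 arrays (columns), with colour giving the log2 value minus the mean of both WT dox pools for that gene. Red fills the LPS columns for H2ac4, H2ac15, H2bc3 and H2bc14, paler red fills the CCSP-p52 dox columns for the same genes, and most H4 cells stay pale.

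More histone genes were called after LPS than in any p52 comparison, and the same held for all genes. The rules differ, with an adjusted p for LPS and a size cut-off with an unadjusted p for p52. Of the 24 genes, 8 rose (33.3%, against 13.5% of all 18820 genes) and 3 fell (12.5%, against 20.8%) at an adjusted p below 0.05 in the additive limma fit of genotype and LPS across the 8 arrays. All 8 genes that rose encode H2A or H2B, and none of the 6 H4 genes passed. The median logFC (log2 fold change) was 0.34 over the 15 H2A and H2B genes and −0.01 over the 9 H3 and H4 genes, against 0.005 over all genes, and 15 of 24 were positive (background 50.8%). The H3 value rests on 3 rows, and the 10 rows shared by several H3 genes, which are not members, all rose (median 0.87). By the size cut-off used for p52 below, a logFC of at least 0.41 with an unadjusted p of at most 0.05, 7 were higher (background 9.89%) and 3 lower (background 13.9%). In the same 11 genes, and in no other member, the 4 LPS pools did not overlap the 4 pools without LPS, with 8 above (background 15.1%) and 3 below (background 21.8%).

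Among the H2A genes, whose proteins pair with H2B on the outside of the nucleosome, H2ac4 read 4.80 and 5.0 in WT dox, 5.70 and 5.57 in CCSP-p52 dox, 7.00 and 6.35 in WT LPS and 6.89 and 6.08 in CCSP-p52 LPS. Every LPS pool was above every pool without LPS, and the CCSP-p52 dox pools lay between. The LPS difference was 1.32 (SE 0.25, limma adjusted p = 0.0054). The row is among the dim ones, its WT dox values lying below those of the squamous marker Krt4 in the same pools (5.64 and 5.72), so no fold is given for it. The values of H2ac15 were 9.70 and 9.25 in WT dox, 10.06 and 9.99 in CCSP-p52 dox, 11.03 and 10.85 in WT LPS and 10.98 and 10.80 in CCSP-p52 LPS. It showed the same order without overlap between those 3 levels, and rose after LPS by 1.17 (SE 0.15, limma adjusted p = 0.0010), or 2.24-fold.

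H2ac21, on chromosome 3, had values of 11.34 and 11.24 in WT dox, 11.56 and 11.47 in CCSP-p52 dox, 12.02 and 11.81 in WT LPS and 12.03 and 11.67 in CCSP-p52 LPS. It rose by 0.48 (SE 0.11, limma adjusted p = 0.011). The testis-type gene H2ac1, which spermatogenic cells are known to use, read 7.75 and 7.74 in WT dox, 7.88 and 7.88 in CCSP-p52 dox, 8.34 and 8.12 in WT LPS and 8.19 and 7.92 in CCSP-p52 LPS. Its LPS pools were all above the others but by little, with a difference of 0.34 (SE 0.10, limma adjusted p = 0.033), and the call was lost on leaving out any single array except CCSP-p52 LPS pool 2. H2ac6, with values of 5.14 to 6.02 over the arrays, and H2ac8, with 3.07 to 3.61, did not pass the test.

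Among the H2B genes, H2bc3 read 7.88 and 7.76 in WT dox, 8.40 and 8.11 in CCSP-p52 dox, 9.19 and 8.88 in WT LPS and 9.31 and 8.69 in CCSP-p52 LPS. The 4 LPS pools were the highest, and the rise of 0.98 (SE 0.17, limma adjusted p = 0.0032) was 1.98-fold. H2bc14 read 9.49 and 9.31 in WT dox, 9.94 and 9.81 in CCSP-p52 dox, 10.59 and 10.30 in WT LPS and 10.65 and 10.07 in CCSP-p52 LPS. It rose by 0.77 (SE 0.17, limma adjusted p = 0.0089), or 1.7-fold. H2bc9 was tightly grouped, at 8.97 and 8.97 in WT dox, 9.39 and 9.26 in CCSP-p52 dox, 9.75 and 9.61 in WT LPS and 9.66 and 9.50 in CCSP-p52 LPS. Every LPS pool was above every pool without LPS, and the rise was 0.48 (SE 0.11, limma adjusted p = 0.0098).

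The testis-type H2bc1, neighbour of H2ac1, read 6.24 and 6.20 in WT dox, 6.58 and 6.49 in CCSP-p52 dox, 7.36 and 6.96 in WT LPS and 6.97 and 6.70 in CCSP-p52 LPS. It rose by 0.62 (SE 0.15, limma adjusted p = 0.015), and the call was lost on leaving out either WT dox pool. The 3 spermatid markers had mean log2 values of 6.39 to 6.51 without LPS and 6.50 to 7.11 with LPS. Of these markers only Prm1 was called after LPS (0.85, limma adjusted p = 0.011), and Tnp1 (0.15) and Tnp2 (0.10) were not. The part of spermatid cells in the result was not tested.

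Not every H2B gene rose. H2bc4 read 11.17 and 11.15 in WT dox, 11.38 and 11.17 in CCSP-p52 dox, 10.58 and 10.55 in WT LPS and 10.57 and 10.98 in CCSP-p52 LPS, and fell by 0.55 (SE 0.10, limma adjusted p = 0.0045). A second row of H2bc4 ran from 5.33 to 6.33 and differed by 0.32 in the opposite direction (SE 0.13, limma adjusted p = 0.094), so the probe sets of this gene disagreed. H2bc21 read 6.82 and 6.80 in WT dox, 7.02 and 6.56 in CCSP-p52 dox, 6.44 and 6.44 in WT LPS and 6.35 and 6.27 in CCSP-p52 LPS. It fell by 0.42 (SE 0.10, limma adjusted p = 0.013). H2bc8, H2bc18 and H2bc22 did not pass the test, with LPS differences of −0.19, 0.05 and 0.20.

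Among the H3 genes, whose proteins form the core tetramer with H4, H3c4 read 7.27 and 7.34 in WT dox, 7.43 and 7.40 in CCSP-p52 dox, 6.85 and 7.06 in WT LPS and 7.02 and 6.81 in CCSP-p52 LPS. It fell by 0.43 (SE 0.08, limma adjusted p = 0.0057), with the genotypes close in each LPS state. H3c15 spread as widely within WT dox, 5.49 and 6.19, as over all arrays, and its LPS difference of −0.19 (SE 0.14) did not pass. H3c7 lay between 3.33 and 3.90 on every array, and its difference of 0.15 did not pass either.

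The H4 genes moved least. H4c4 read 12.88 and 12.86 in WT dox, 12.92 and 12.77 in CCSP-p52 dox, 12.86 and 12.56 in WT LPS and 12.70 and 12.81 in CCSP-p52 LPS. Its genotypes overlapped in each LPS state, as did the pools with and without LPS. The LPS difference of H4c4 was −0.12 (SE 0.09). H4c3 came nearest to a call, with 6.72 and 6.80 in WT dox, 6.82 and 7.00 in CCSP-p52 dox, 7.33 and 6.95 in WT LPS and 7.02 and 7.09 in CCSP-p52 LPS. Its difference of 0.26 (SE 0.10) had a limma adjusted p of 0.085. The other H4 genes differed by −0.05 to 0.19.

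The genes that rose after LPS have RefSeq gene models of 432 to 536 bases. The 3 that fell have models of 504 bases for H3c4, 2667 for H2bc21 and 8282 for H2bc4. Genes not called have models of 375 (H4c3) to 14079 bases (H2bc22). Some of these, such as H2ac6 (487) and H2bc18 (493), lie within the range of the genes that rose, so length did not set those apart. CCAAT was found in 8 of 8 windows of genes that rose, in the 1 window of a gene that fell (H3c4) and in 7 of 11 windows of genes not called, and the octamer core in 5 of 8, 0 of 1 and 5 of 11. Since all H2A and H2B windows hold CCAAT, called or not, that element did not set called genes of these classes apart from the others. As the windows show, H2bc3, H2bc14 and H2ac4 hold the octamer core and H2ac15 does not, so the genes with the greatest rise did not all carry it. Without both second LPS pools 12 genes were called for LPS (9 higher), the median over H2A and H2B was 0.46 and H2ac4 differed by 1.68, and leaving out 1 array at a time gave 9 to 12.

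**Figure D2:**
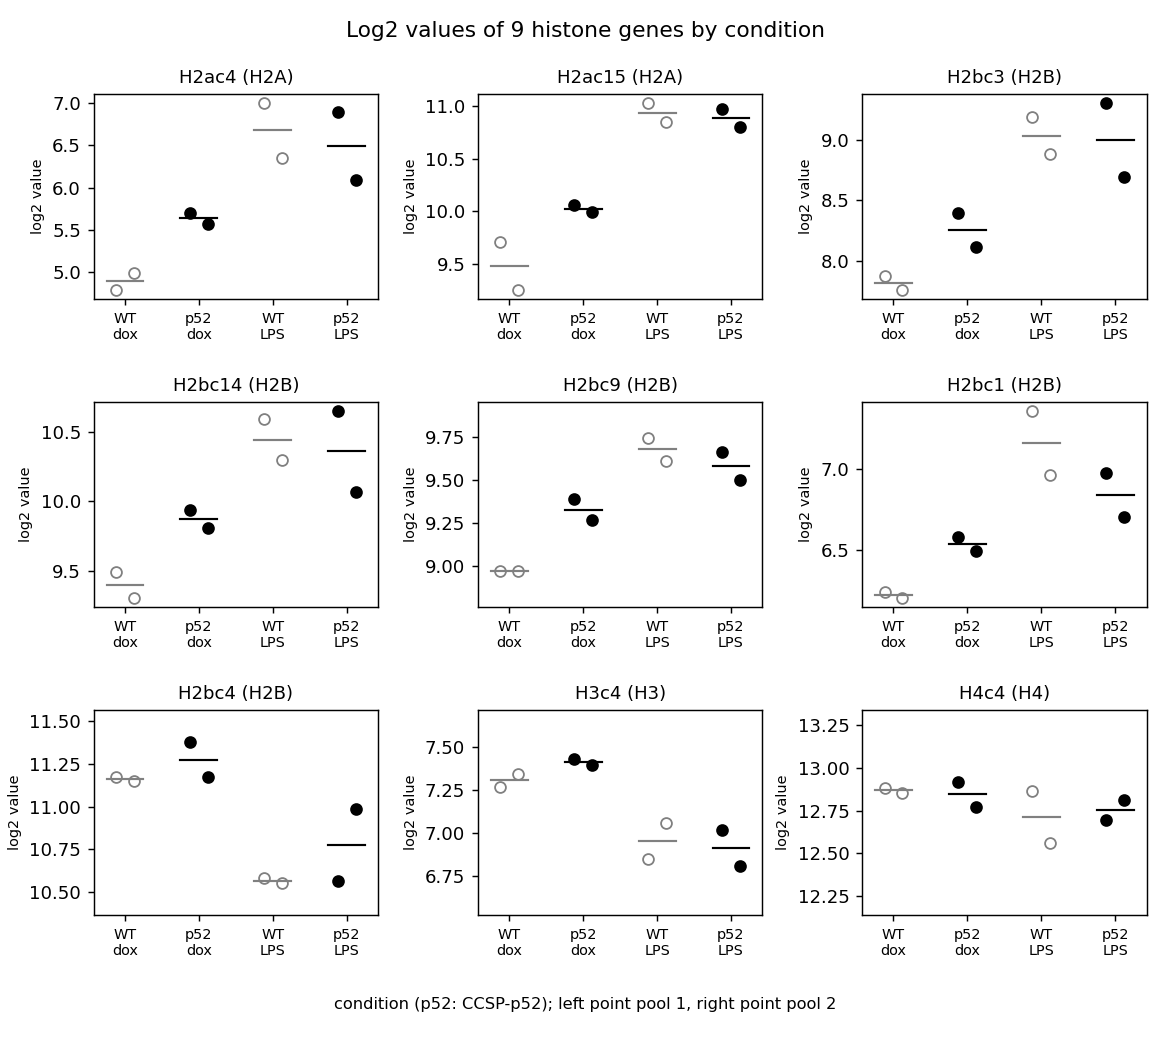
Log2 values of 9 histone genes in each pool, with WT as open circles, CCSP-p52 as filled circles, pool 1 left and pool 2 right in each group, and a line at the mean of the 2 pools; vertical axes differ between panels and do not start at 0. In the 6 upper panels the CCSP-p52 dox points lie above the WT dox points and the LPS points lie highest, while H2bc4 and H3c4 are lowest after LPS and H4c4 shows no order.

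Without LPS, the comparison of CCSP-p52 dox with WT dox asked which genes p52 alone changed. By the study's cut-off, a logFC of at least 0.41, read here with an unadjusted limma p of at most 0.05, 2 of 24 histone genes were higher (8.33%, against 0.569% of all genes) and 0 were lower (background 0.165%). They were H2ac4, higher by 0.74 (SE 0.30) from a dim row, and H2ac15, higher by 0.55 (SE 0.16) or 1.46-fold. At an unadjusted limma p below 0.05 alone, 4 of 24 passed (background 1.73%), adding H2bc9 with 0.36 (SE 0.10) and H2bc8 with 0.35 (SE 0.13). No histone gene and no other gene passed an adjusted p of 0.05 in this comparison, and the limma adjusted p of both called genes was 1.00.

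The differences leaned upward by class. Of the 24 genes, 19 had a positive logFC (background 48.8%), and the median was 0.14, against −0.003 over all genes. The median was 0.18 for H2A, 0.32 for H2B, 0.11 for H3 and 0.05 for H4, or 0.23 over H2A and H2B and 0.06 over H3 and H4. The H3 median rests on 3 rows, and the 10 rows shared by several H3 genes, which are not members, had a higher median of 0.58. In 13 of 24 genes (54.2%, background 16.5%) both CCSP-p52 dox pools were above both WT dox pools, and in 0 genes were both below (background 16.2%). Those 13 were 4 H2A genes, 6 H2B genes, H3c4, H4c3 and H4c14. As the genes of the class share near-identical sequence and the same 4 pools, they are not independent counts.

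Several H2B genes fell just short of the cut-off. H2bc14 was higher by 0.48 (SE 0.20), and H2bc3 by 0.44 (SE 0.22), both large enough but short of the limit on p, as the pool values above show with no overlap of the genotypes. H2bc8 read 7.06 and 6.79 in WT dox, 7.29 and 7.27 in CCSP-p52 dox, 6.90 and 6.91 in WT LPS and 6.78 and 7.06 in CCSP-p52 LPS, so it was highest in the CCSP-p52 dox pools. H2bc1 differed by 0.32 (SE 0.16) and H2ac1 by 0.14 (SE 0.12).

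The number of calls depended on single pools: 0 without the first CCSP-p52 dox pool, 1 without the second WT dox pool, and 4 without either CCSP-p52 LPS pool, which changes only the estimate of the spread. H2ac4 was lost on leaving out any of the 4 dox arrays (0.64 to 0.84), and H2ac15 when the second WT dox pool (0.32) or the first CCSP-p52 dox pool was left out. With the replicate number as a block, 4 genes were higher, H2bc14 and H2bc3 being added.

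With LPS, CCSP-p52 and WT lungs differed in no histone gene at the cut-off (0 of 24 either way, against 0.972% of all genes higher and 1.09% lower). H3c7 alone passed the limit on the unadjusted limma p (1 of 24, background 6.87%), at 3.44 and 3.37 in WT LPS and 3.90 and 3.63 in CCSP-p52 LPS, a difference of 0.35 (SE 0.12, limma adjusted p = 0.69). Its row is dim, with a mean log2 value of 3.51 over the arrays against a median of 8.09 over all genes. Of the 24 genes 12 had a positive logFC (background 50.9%), and the median was −0.01, with −0.07 over H2A and H2B and 0.06 over H3 and H4. H2ac4 differed by −0.19 (SE 0.30) and H2ac15 by −0.05 (SE 0.16). Both CCSP-p52 pools were above both WT pools in 4 genes (H2bc22, H3c15, H3c7 and H4c14, background 15.3%) and below in 1 (H2bc21, background 16%).

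H2ac6 had the widest positive difference with LPS, 0.42 (SE 0.23), through a single pool: it read 5.39 and 5.14 in WT LPS and 5.35 and 6.02 in CCSP-p52 LPS. The count at the cut-off was 4 without CCSP-p52 LPS pool 1, 2 of them higher and 2 lower, 1 (H2bc1, lower) without WT LPS pool 2, and 1 (H3c7, higher) without CCSP-p52 LPS pool 2 or both second LPS pools.

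**Figure D3:**
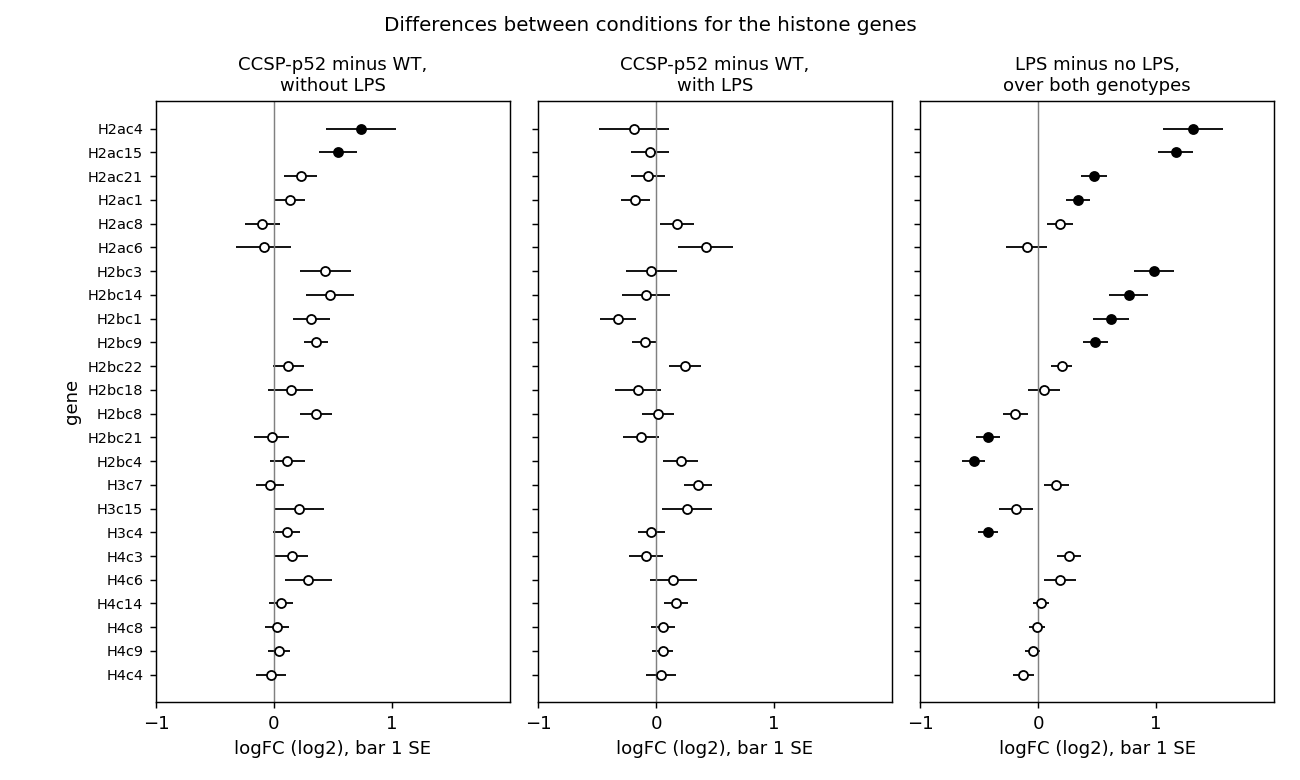
logFC of each histone gene (points, log2 scale, with bars of 1 SE) for CCSP-p52 against WT without LPS, CCSP-p52 against WT with LPS, and LPS against no LPS over both genotypes; filled points were called, at the cut-off in the p52 panels and at a limma adjusted p below 0.05 in the LPS panel. H2ac4 and H2ac15 are filled in the first panel, none in the second, and 11 genes in the third.

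Whether the p52 difference itself changed with LPS was tested as an interaction. In 3 of 24 genes the p52 difference was lower with LPS than without at the cut-off (12.5%, against 2.38% of all genes), and in 0 genes higher (background 1.24%). These were H2bc1 with −0.64 (SE 0.22), H2ac15 with −0.60 (SE 0.23) and H2bc9 with −0.45 (SE 0.15), each with a limma adjusted p of 0.91. For H2bc1 the p52 difference was 0.32 without LPS and −0.32 with it (SE 0.16 each). H2ac4 had the widest interaction, −0.93 (SE 0.42), which did not pass the limit on p. The median interaction was −0.31 over H2A and H2B, with 4 of 15 positive, and 0.03 over H3 and H4, and 10 of all 24 were positive (background 51.2%). In the 10 rows shared by several H3 genes, which are not members, the median was −0.73. With the replicate number as a block 6 genes were called, all lower. Without both second LPS pools 6 were called, 5 lower and 1 higher (H3c7), and H2ac15 was no longer among them. The count was 10 without CCSP-p52 LPS pool 1, of which 1 was higher (H2ac6), 2 without CCSP-p52 LPS pool 2 (H2bc8 lower and H3c7 higher, none of the 3 above), 5 without WT LPS pool 2, 1 without the first WT dox pool and 0 when the first CCSP-p52 dox pool, the second WT dox pool or the first WT LPS pool was left out.

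Over both LPS states, the comparison that uses all 8 arrays, 0 of 24 histone genes reached the cut-off in the additive limma model (background 0.228% higher and 0.0425% lower), 0 had an unadjusted limma p below 0.05 (background 2.31%) and 0 passed an adjusted p of 0.05 (background 0.00531% higher). Of the 24, 20 were positive (background 50.3%), with a median of 0.12 against 0.001 over all genes and a range from −0.07 (H2bc21) to 0.28 (H2ac4). In each class the genes of lowest p were H2ac15 (0.25, SE 0.15) and H2ac4, H2bc22 (0.19, SE 0.09) and H2bc8 (0.18, SE 0.11), H3c15 (0.24, SE 0.14) and H3c7 (0.16), and H4c6 (0.22, SE 0.13) and H4c14 (0.12).

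H2bc22 read 6.81 and 7.06 in WT dox, 7.06 and 7.06 in CCSP-p52 dox, 6.94 and 7.20 in WT LPS and 7.25 and 7.39 in CCSP-p52 LPS, so the genotypes were apart after LPS and met at 7.06 without it. H4c6 read 9.21 and 9.60 in WT dox, 9.48 and 9.91 in CCSP-p52 dox, 9.67 and 9.65 in WT LPS and 9.98 and 9.63 in CCSP-p52 LPS, so its genotypes overlapped in each. With array weights, which give arrays that lie far from the fit less influence, 4 genes reached the cut-off (H2ac4, H2ac15, H2bc3 and H2bc14). The share of all genes that did so with array weights was not counted.

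Beside the core histone genes, 5 of 6 listed linker histone H1 genes were measured; H1 binds the DNA between nucleosomes. H1f5 read 8.49 and 8.26 in WT dox, 8.57 and 8.71 in CCSP-p52 dox, 9.88 and 9.71 in WT LPS and 9.93 and 9.54 in CCSP-p52 LPS. It rose after LPS by 1.26 (SE 0.12, limma adjusted p = 0.00031), H1f1 by 0.74 and H1f3 by 0.40. This made 3 of 5 called higher (background 13.5%). H1f2 differed by −0.32 and the testis-type H1f6 by 0.07, and neither passed. Without LPS all 5 were positive for p52, with a median of 0.24, and 0 reached the cut-off.

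Replication-independent variants, which are made outside S phase as well, behaved differently from one another. Of 10 measured, 3 rose (background 13.5%) and 1 fell (background 20.8%) after LPS. H2ax, whose phosphorylated form marks DNA breaks, rose by 0.55, Macroh2a1 by 0.50 and H2az1 by 0.39. H2az2 fell by 0.84 (SE 0.09, limma adjusted p = 0.00042). H2az1 and H2az2 encode nearly the same protein. None of the 10 reached the cut-off for p52 in either LPS state, and the median without LPS was 0.03.

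Of the 13 measured genes for histone mRNA processing and transcription, 2 rose and 2 fell after LPS (limma adjusted p below 0.05). By the same rule 13.5% of all genes rose and 20.8% fell, so these counts lie near the share of all genes. Cpsf2, a subunit of the cleavage complex, rose by 0.36 and Eri1, an exonuclease that acts on the stem-loop, by 0.47. Hinfp, a regulator of H4 genes, fell by 0.25 and Lsm11, of the U7 snRNP, fell by 0.23. Slbp read 8.83 and 8.79 in WT dox, 8.90 and 8.91 in CCSP-p52 dox, 9.28 and 8.89 in WT LPS and 9.45 and 8.81 in CCSP-p52 LPS, with both second LPS pools inside the range of the pools without LPS. Its LPS difference of 0.25 did not pass (limma adjusted p = 0.22). None of the list reached the cut-off for p52 in either LPS state.

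Of the 14 measured histone chaperone genes, 7 rose (background 13.5%) and 1 fell (background 20.8%) after LPS. Asf1b, the H3-H4 chaperone of dividing cells, rose by 1.29, Hat1, which acetylates new H4, by 1.02, and Daxx, which deposits H3.3, by 1.08, while Atrx, the partner of DAXX, fell by 0.57 (SE 0.07, limma adjusted p = 0.00072). Without LPS, 2 were higher in CCSP-p52 lungs at the cut-off, Hells by 0.73 and Asf1b by 0.56. With LPS 0 were.

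Genes of DNA synthesis and division moved in the same comparisons. Of 25 measured S phase genes, 21 rose after LPS (background 13.5%), and the median of the list was 0.54. Among them, Rrm2, a subunit of ribonucleotide reductase, rose by 1.39 and Ccne1, or cyclin E1, by 1.04. Without LPS 23 of 25 were positive for p52 and 8 reached the cut-off, Ccna2 (cyclin A2) with 0.86, Dtl with 0.72 and the helicase subunit Mcm6 with 0.58 among them, with a median of 0.22. With LPS the median was −0.01 and 0 reached it.

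Of 18 measured G2 and M phase genes, 17 rose after LPS (background 13.5%), with a median of 1.03. Without LPS 18 of 18 were positive for p52 and 11 reached the cut-off, with Ect2 at 1.12, Prc1 at 1.09 and Top2a at 0.87, and the median was 0.59. With LPS the median was −0.14 and 0 reached it. The interaction was lower at the cut-off in 6 of the S phase genes and 10 of the G2 and M phase genes. Both lists were written with earlier results of these arrays known, so their direction is not independent evidence.

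**Figure D4:**
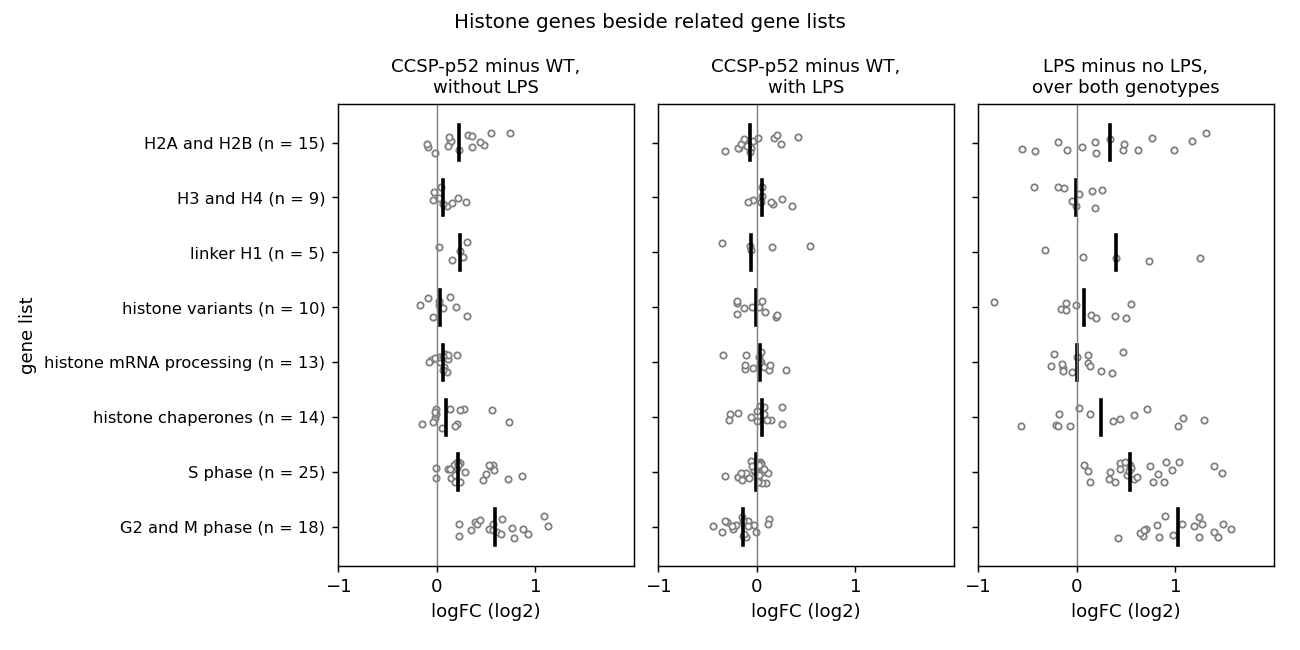
logFC (log2 scale) of the single genes (open circles, spread vertically for sight) and their median (bar) in the histone genes and 6 related lists, for the p52 comparison without LPS, that with LPS, and LPS over both genotypes. The G2 and M phase list has the highest median in the first and last panels (0.59 and 1.03). H2A and H2B (0.23 and 0.34) lie above H3 and H4 (0.06 and −0.01), of which H3 rests on 3 genes. The 10 rows shared by several H3 genes, which are not members, had medians of 0.58 and 0.87 in the same comparisons. In the middle panel all plotted medians lie between −0.14 and 0.06.

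Cell markers moved with LPS as well. The mean log2 value of 5 neutrophil markers was 6.80 to 7.17 without LPS and 9.29 to 9.69 with LPS, with 3 of 5 called higher, whereas the precursor markers Elane and Mpo lay between 6.38 and 6.96 on every array. The T cell list ran from 7.99 to 8.64 without LPS and from 7.90 to 9.14 with LPS, and the B cell list from 7.81 to 8.69 and from 7.23 to 8.09. Between WT dox and CCSP-p52 dox the neutrophil means were 7.17 and 6.80 against 6.90 and 7.04, and the T cell means 8.64 and 7.99 against 8.43 and 8.32, overlapping in both. Lung markers moved as well: after LPS the alveolar type I list had a median logFC of −0.75 with 2 of 3 called lower, the endothelium list −0.51 with 2 of 2, the alveolar type II list −0.42 with 1 of 3 and the airway list −0.25 with 1 of 3. The part of changed cell numbers in the histone values was not tested.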

How the data were processed

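Whole-lung RNA was read on Affymetrix gene arrays for mouse (Gene 1.0 ST). The deposited values are log2 probe set levels that the authors made with the robust multichip average (RMA); they also name limma 3.20.8. Scanner files were not used here, so background correction and probe set summary could not be varied. Genes were named through the platform annotation, using rows with 1 symbol only.

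All 21218 such rows were fitted with limma 3.58.1 in R 4.3.3 (lmFit and eBayes) over 8 arrays, with p52 and LPS as additive factors, and again as 4 group means for p52 without LPS, with LPS and their interaction. P-values were Benjamini-Hochberg adjusted over all rows. The p52 call rule was a logFC of at least 0.41 with an unadjusted p of at most 0.05, and the LPS rule an adjusted p below 0.05. The additive fit was tested on simulated data for the p52 effect only, and the fit of group means was not tested in that way. Genes named were those at the cut-off for p52, in each class the 2 of lowest p for p52 and for LPS and the 1 of highest mean, and the testis-type genes; H2bc21, H2bc9, H2bc14, the H2B genes near the cut-off and the linker H1 list were added after their values were seen. The members and lists were chosen with earlier results of these data known. With 2 pools in a group, the number of arrays limits the precision.

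Pools that carry the same number departed from their groups in like manner, with correlations of 0.14 to 0.35 over the 6 pairs of groups. The number was therefore used as a pairing in the replicate block alternative only. The values in the report come from fits without it. The pairing rests on the values alone, since no label says what such pools have in common. Alternatives were all rows or no dim rows (below the 25th percentile), trended and robust moderation, array weights, median centring, a second quantile normalization, the replicate block, the mean of a gene's rows, leaving out each array or both second LPS pools, and only the arrays compared. Promoter sequences are RefSeq's, build GRCm38.p6.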

Additional observations from a re-analysis of the deposited data

Results flagged for a closer look

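In 3 histone genes the p52 difference was lower with LPS than without at the cut-off of the interaction test, against 2.38% of all genes. The limma adjusted p of each was 0.91, so a change with LPS was not established. H2ac15 was no longer called with array weights, nor H2bc1 with a second quantile normalization. The difference with LPS minus that without was −0.64 for H2bc1, −0.60 for H2ac15 and −0.45 for H2bc9. Each of these calls was lost in 5 of 8 fits that left out 1 array.

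The 38 rows that list several histone symbols were outside the member rule. For p52 without LPS 10 of them reached the cut-off, all higher, and these were the 10 rows shared by several H3 genes (0.57 to 0.60). They share near-identical sequence, so they are not independent, and no single gene was named from them. With 2 pools in a group, a single pool far from the rest could not be tested for.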

How the results depend on the processing

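No gene called in the report changed direction under any alternative run. The median over H2A and H2B for p52 with LPS, −0.07 in the report, was 0.09 without CCSP-p52 LPS pool 2. The counts below are of members, and the share of all genes called was not counted under the alternatives. Counts of histone genes at the cut-off for p52 without LPS, 2 in the report, were 1 without dim rows, which drop H2ac4 itself and leave 18 members, and 4 with array weights, with the replicate block, without both second LPS pools and with only the 4 arrays compared. For p52 over both LPS states, 0 in the report, they were 4 with array weights and 1 without both second LPS pools. For p52 with LPS, 0 in the report, the count was 1 without both second LPS pools. For the interaction, 3 in the report, all lower, it was 6 with the replicate block, all lower, and 6 without both second LPS pools, 5 lower and 1 higher (H3c7), with H2ac15 lost. The block on the pairing of pools moved no other count by over 1.5 times. Leaving out 1 array at a time gave 0 to 4 for p52 without LPS, 0 to 1 over both states, 0 to 4 with LPS, 0 to 10 for the interaction and 9 to 12 for LPS. The LPS count stayed within 9 to 12 under the others too, though H2ac1 was lost with all rows fitted and H2bc4 with the mean of its rows (−0.11). In all, 843 alternative values were read as unchanged. For single genes this meant the same direction and call, for counts a change within 1.5 times, and for medians a shift below the median SE. A median near 0 could change sign within that limit. The median of the histone genes for p52 with LPS, −0.01 in the report, was 0.10 without WT LPS pool 1. A further 46 counts or medians moved by more, 36 values no longer passed and 30 newly passed.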

Other observations

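The rows shared by several histone genes were also read by class, with no gene named. They share near-identical sequence and the same pools, and some rows hold identical values on every array. Their counts are therefore not independent of each other or of the members. The share of all rows called in this fit was not counted. After LPS 30 of the 38 rose (limma adjusted p below 0.05, fitted over all rows): 12 of 13 H2A rows with a median logFC of 0.59, 7 of 7 H2B rows with 0.53, 10 of 10 H3 rows with 0.87 and 0 of 6 H4 rows with −0.03. The remaining 2 rows held symbols of more than 1 class. The H3 rows rose while the single-symbol row of H3c4 fell, and the probes of these rows were not compared.

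For p52 without LPS the medians of the same rows were 0.33 for H2A, 0.37 for H2B, 0.58 for H3 and 0.05 for H4, and 37 of 38 were positive. With LPS they were −0.01, −0.12, −0.15 and 0.04, and 0 rows reached the cut-off. The interaction was lower at the cut-off in all 10 H3 rows, with a median of −0.73, and in 3 H2B rows.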
